A study of Mus musculus with 22 samples.

Results

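Glucose metabolism in the liver was followed through 34 genes, chosen by name as the enzymes, transporters and regulators of gluconeogenesis (9 genes), glycolysis and its control (16 genes), glycogen (5 genes) and the pentose phosphate pathway (4 genes). All 34 were found among the 23909 gene symbols of the deposited RPKM table. All 34 were also among the 12264 genes tested, those that reached 1 RPKM in 4 or more libraries. Poly(A) RNA was sequenced from livers of male C57BL/6 mice, all labelled as fasted. JAX (n = 4) and TAC (n = 4) were mice of the vendors Jackson and Taconic, with their own gut microbes. The group GF (n = 4) was germ-free, that is, without microbes. Germ-free recipients formed the groups GF_JAX (n = 5) and GF_TAC (n = 5), inoculated with cecum material of JAX or TAC mice, kept for 4 weeks, fasted for 16 h and then sampled. Hours of fasting are given for those recipients alone, so a difference in fasting time and a difference between groups cannot be told apart wherever JAX, TAC or GF enter. The labels do not say whether libraries of a group came from separate animals, so the p-values rest on a spread between libraries that may be technical only. C57BL/6 is given without a substrain for any group, and vendor, substrain and microbes cannot be told apart between JAX and TAC.

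The fasted liver releases glucose, first from glycogen and then by gluconeogenesis, which turns lactate, alanine and glycerol into glucose. Pyruvate carboxylase (Pcx) makes oxaloacetate, and phosphoenolpyruvate carboxykinase, cytosolic (Pck1) or mitochondrial (Pck2), turns it into phosphoenolpyruvate. Fructose-bisphosphatase (Fbp1) and glucose-6-phosphatase (G6pc) with its transporter (Slc37a4) complete the route. In the fed liver, phosphofructokinase (Pfkl) and pyruvate kinase (Pklr) drive glycolysis, glycogen synthase (Gys2) stores glucose, and the carbohydrate-responsive transcription factor ChREBP, encoded by Mlxipl, raises Pklr. The pentose phosphate pathway makes NADPH and ribose from glucose-6-phosphate.

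Promoters are shown for the pair of carboxykinase genes, the 2 of the 34 that were called in the interaction of donor and vendor differences described with the results, and for Pklr, whose promoter holds the element through which ChREBP is known to act. The sequences are from RefSeq on the assembly GRCm38.p6, plus strand, 5′ to 3′, and cover the 250 bases before the annotated start. Capitals mark the motif named with each.
Pck1 (chr2:173152823-173153072; the core of a cAMP response element, TGACG, read on the minus strand as CGTCA): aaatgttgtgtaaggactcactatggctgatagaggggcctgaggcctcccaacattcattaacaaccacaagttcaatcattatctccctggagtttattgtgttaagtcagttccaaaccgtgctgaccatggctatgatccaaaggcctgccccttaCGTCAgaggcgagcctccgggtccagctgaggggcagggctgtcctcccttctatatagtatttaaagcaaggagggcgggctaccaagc
Pck2 (chr14:55540016-55540265; an amino acid response element, TGATGNAA, read on the minus strand): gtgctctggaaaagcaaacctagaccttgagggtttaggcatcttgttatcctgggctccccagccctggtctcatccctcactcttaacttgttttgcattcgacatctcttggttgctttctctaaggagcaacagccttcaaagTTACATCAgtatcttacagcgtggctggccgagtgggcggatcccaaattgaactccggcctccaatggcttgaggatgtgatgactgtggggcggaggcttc
Pklr (chr3:89136373-89136622; a carbohydrate response element, with an E-box-like stretch at each end, neither being CACGTG): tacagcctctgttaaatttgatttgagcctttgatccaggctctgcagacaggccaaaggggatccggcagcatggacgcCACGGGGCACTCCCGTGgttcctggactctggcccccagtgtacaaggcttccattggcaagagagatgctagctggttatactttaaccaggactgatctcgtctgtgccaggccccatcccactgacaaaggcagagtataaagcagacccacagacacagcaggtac
The table held promoters for 33 of the 34 genes (Gys2 was not matched), in 47 windows of 250 bases before and 50 after a start. Both strands were searched. The carbohydrate response element was found for 1 of the 33 genes, Pklr, and in 0.0457% of all 32851 windows. The amino acid response element was found for Pck2, G6pc and Got1, and in 3.97% of all windows. The core TGACG of the cAMP response element was found for 10 genes including Pck1, against 20.8% of windows. The whole element TGACGTCA, which contains that core, was found for Mdh2 and Ldha, against 1.79% of windows. The E-box CACGTG was found for 6 genes and in 7.15% of windows, and the forkhead motif TGTTTAC for 0 genes and in 3.65% of windows. Genes were counted with a match in any of their windows, whereas the percentages are of single windows, so these are unlike measures. These are matches of letters and show no binding.

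Libraries held 1.32 to 3.72 M counted reads (M, 1000000), read from the steps of the low RPKM. The most abundant mRNAs carried depth in their values. Alb, Apoa1 and Apoe stood near 1 shared level in each library, from 473 to 1340 RPKM. Their RPKM varied by 29.0% to 29.9% (CV) over the 22 libraries, but RPKM times depth by 1.55% to 2.13%. This shared level is called the top level, and a gene near it has an RPKM that falls with depth. A share of the top level is RPKM over a value that itself falls with depth. For a gene whose RPKM does not follow depth, such a share rises with depth, so it is no check independent of depth. Libraries also differed in how RPKM depended on transcript length. The slope of log2 RPKM on log2 length, each gene centred on its mean over libraries, was above 0 in 10 libraries (all JAX, all TAC, GF_JAX 1 and GF_JAX 4) and below 0 in the other 12. All GF and GF_TAC libraries therefore differed from all JAX and TAC libraries in length slope, and for these groups microbial status and library kind cannot be told apart. A fit with the length slope as a term meets the same limit. A call lost in such a fit therefore cannot be assigned to length or to group. Hepatocyte markers were abundant in every library, from Alb at 506 RPKM or more to Hnf4a at 156 RPKM or more, and the summed RPKM of 6 skeletal muscle markers was at most 0.644. These are bulk samples, in which fewer cells of a type and less RNA per cell cannot be told apart.

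Per length, the genes spanned more than 2 orders of magnitude. Pck1 was highest, with a mean of 609.7 RPKM over 22 libraries, or 74.4% of the top level, followed by lactate dehydrogenase A (Ldha, 494 RPKM), Fbp1 (439 RPKM) and ketohexokinase (Khk, 428 RPKM), the first enzyme of fructose use. The mean of Pck1 was thus well above that of Pck2, at 3.36 RPKM. The other low genes were glycogenin (Gyg, 7.29 RPKM), the primer of glycogen, and glucose-6-phosphate dehydrogenase (G6pdx, 2.45 RPKM), the entry to the pentose phosphate pathway. These 3 genes rested on few reads, 11 to 60 per library for Pck2, 14 to 64 for Gyg and 7 to 22 for G6pdx. Within groups the median SD on the log2 scale was 0.205 for the 34 genes and 0.233 for all genes tested. It was 0.09 for Gys2 and for liver phosphofructokinase (Pfkl), and 0.37 for Pklr. Ldha, Gapdh, Pgk1, Tpi1, Eno1 and Pgam1 have near-identical copies in the mouse genome, and their values are uncertain where counting could split reads.

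**Figure D1:**
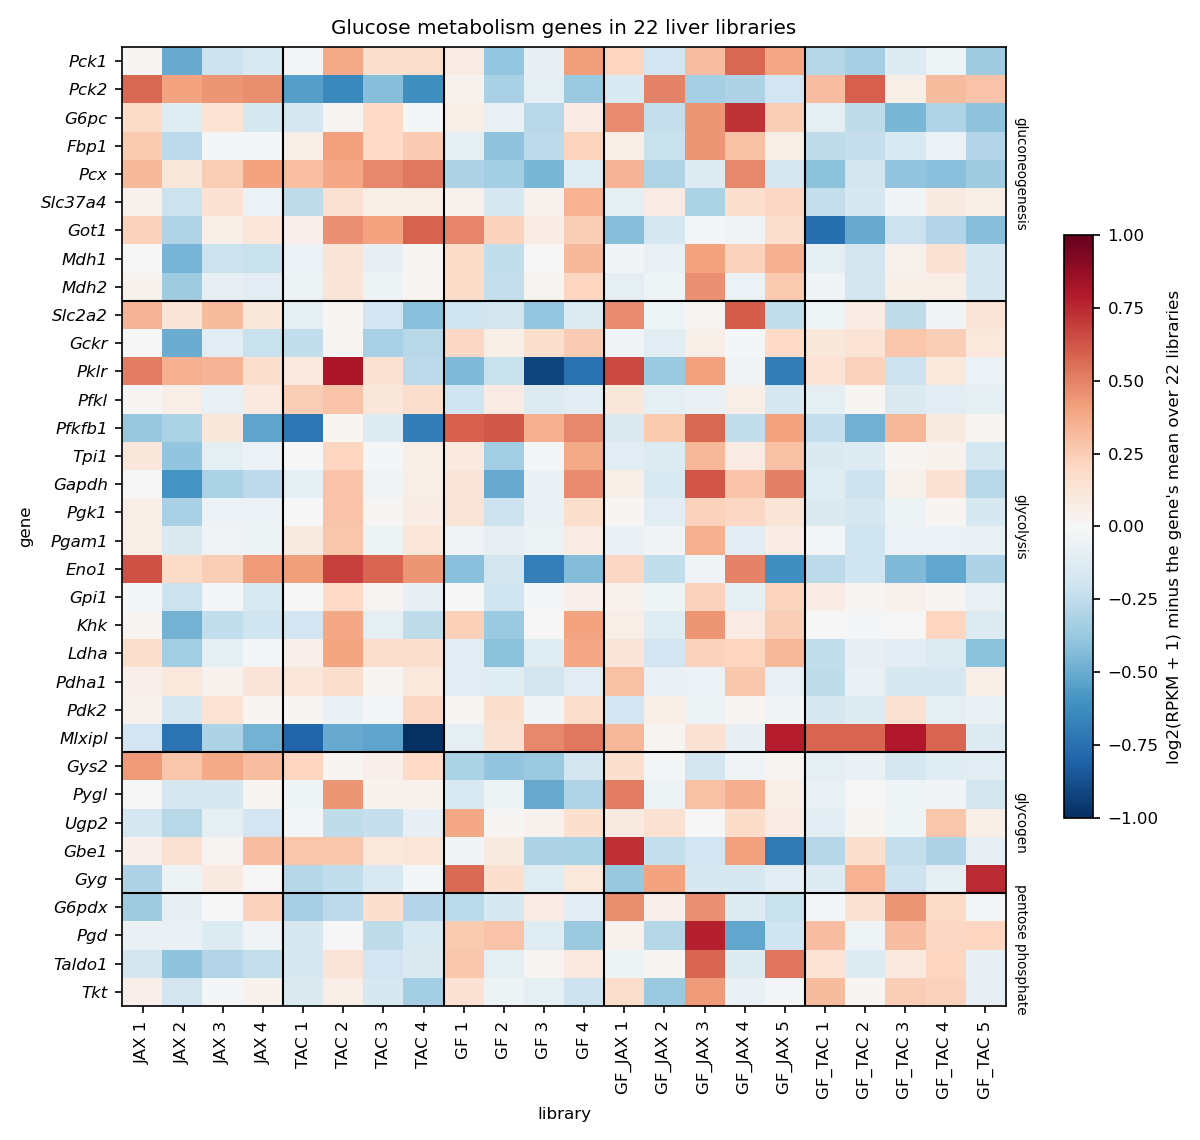
Heat map of log2(RPKM + 1) of the 34 genes (rows, by role) in the 22 libraries (columns, by group), each gene minus its mean over all libraries, with the colour scale ending at 1 in either direction. Pck2 is high in all JAX and GF_TAC libraries and low in all TAC libraries, and Mlxipl is low in all JAX and TAC libraries.

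**Figure D2:**
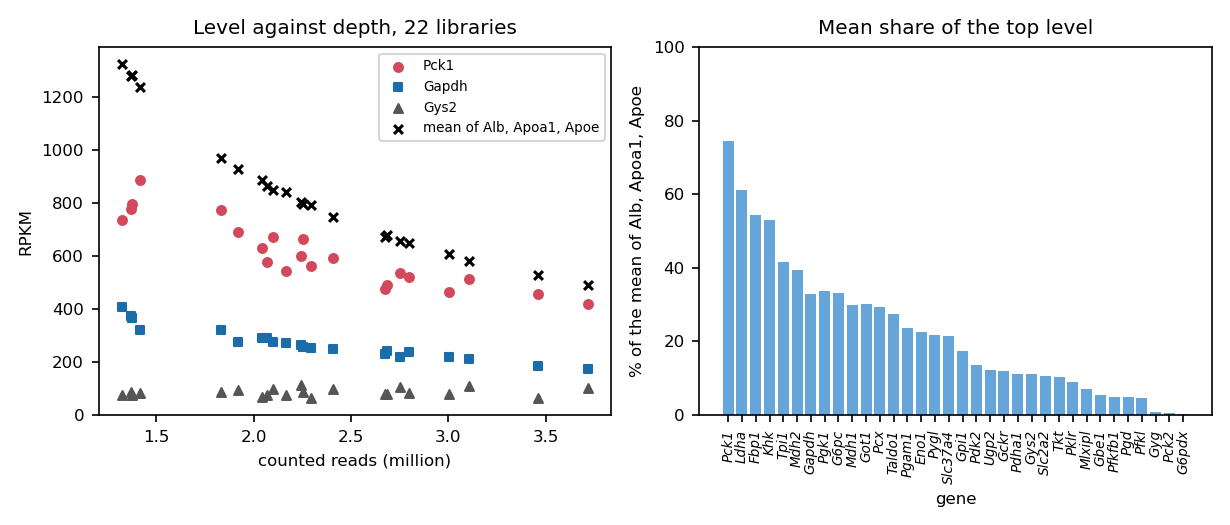
Left, RPKM of Pck1, Gapdh, Gys2 and the mean of Alb, Apoa1 and Apoe (vertical axis) against counted reads in M (horizontal axis), 1 point per library. Right, each gene's mean over 22 libraries as a percentage of that top level, which was 74.4% for Pck1. The top genes and Pck1 fall with depth, and Gys2 does not follow it.

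Differences below are on the log2(RPKM + 1) scale with their standard error, from limma over all 12264 genes with Benjamini-Hochberg adjustment, and a gene is called at an adjusted p under 0.05. Of the 34 genes, 19 were called in at least 1 of the 8 comparisons of 2 groups and 15 in none. Between the vendors, 1 of 34 was called for TAC minus JAX, lower, where 0.294% of all genes were called and 0.114% lower. In the recipients 0 of 34 were called for GF_TAC minus GF_JAX, where 0.171% of all genes were (0.0571% higher). An unadjusted p under 0.05 was reached by 11 of the 34 and by 1635 of the 12264. Colonisation gave 1 call for GF_JAX minus GF and 1 for GF_TAC minus GF, where 0.612% and 0.204% of all genes were called. The first was higher, as were 0.342% of all genes (0.269% were lower), and the second lower, as were 0.0326%. The 4 comparisons of GF or recipients with vendor mice gave more. Their groups also differed in length slope, wholly or, for GF_JAX minus JAX, in 3 of 5 recipient libraries. In GF_JAX minus GF and GF_TAC minus GF_JAX, the libraries GF_JAX 1 and GF_JAX 4 differed in slope from the other group. Called were 10 of 34 for GF minus JAX (4 higher, 6 lower) and 10 for GF minus TAC (4 higher, 6 lower). For GF_JAX minus JAX 8 were called (6 higher, 2 lower), and for GF_TAC minus TAC 10 (3 higher, 7 lower). With libraries scaled to a common sum, GF minus JAX had 1 higher and 9 lower, GF minus TAC 3 and 11, and GF_JAX minus JAX 1 and 5. All genes shifted to lower with that scaling too. Of the 12264, 565 were called higher and 2538 lower for GF minus JAX, 807 and 1670 for GF minus TAC, and 476 and 2015 for GF_JAX minus JAX. Without that scaling, the percentages of all genes called in the 4 comparisons were 24, 24.3, 13.4 and 23.8. The counts for GF minus JAX, GF minus TAC and GF_TAC minus TAC thus stood near the background. For GF_JAX minus JAX, 23.5% of the 34 genes stood above it. Of all genes, 11.7% were called higher and 12.3% lower for GF minus JAX, 11.1% and 13.2% for GF minus TAC, 7.37% and 5.98% for GF_JAX minus JAX, and 11.1% and 12.7% for GF_TAC minus TAC. With the length slope as a term in the fit, the counts of the 34 genes in these 4 comparisons were 2, 1, 3 and 6. The number of all 12264 genes called then also fell, from 2939, 2977, 1638 and 2924 to 459, 136, 1161 and 460. The donor difference in recipients minus the vendor difference, here the interaction, was called for 2 of 34 (1 higher, 1 lower) against 1.48% of all genes (0.481% higher, 1% lower). Comparisons that share a group share its libraries and are not independent of each other.

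Among the gluconeogenic genes, Pck2 differed most between vendors. It was lower in TAC than in JAX, and among recipients it was not lower with TAC material. Its RPKM was 5.25, 4.53, 4.70 and 4.80 in JAX and 1.87, 1.69, 2.12 and 1.74 in TAC. It was 3.30, 2.35, 2.94 and 2.25 in GF. Recipients had 2.78, 4.92, 2.33, 2.38 and 2.67 in GF_JAX and 4.19, 5.35, 3.37, 4.21 and 4.11 in GF_TAC. JAX and TAC did not overlap, GF lay between them, and all GF_JAX libraries but GF_JAX 2 lay below all GF_TAC libraries. Pck2 fell by 1.03 ± 0.16 from JAX to TAC (adjusted p = 0.00277). This call was kept with any single library left out, and the counted reads behind it were 42 to 60 per library in JAX and 11 to 17 in TAC. Between recipients the difference was 0.41 ± 0.14 in the other direction (adjusted p = 0.235), not called. The interaction of 1.44 ± 0.22 was called (adjusted p = 0.00164), but not with depth and length slope both as terms (1.03, adjusted p = 0.0527). Pck2 was also lower in GF than in JAX (-0.66 ± 0.16, adjusted p = 0.00776) and higher in GF_TAC than in TAC (0.87 ± 0.15, adjusted p = 0.00102). It was lower in GF_JAX than in JAX (-0.57 ± 0.15, adjusted p = 0.0192), a call lost without JAX 4, with depth as a term alone or with the length slope, with library quality weights and with those groups alone in the fit. GF_TAC lay above GF without overlap, by 0.50 ± 0.15, which was not called (adjusted p = 0.312).

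**Figure D3:**
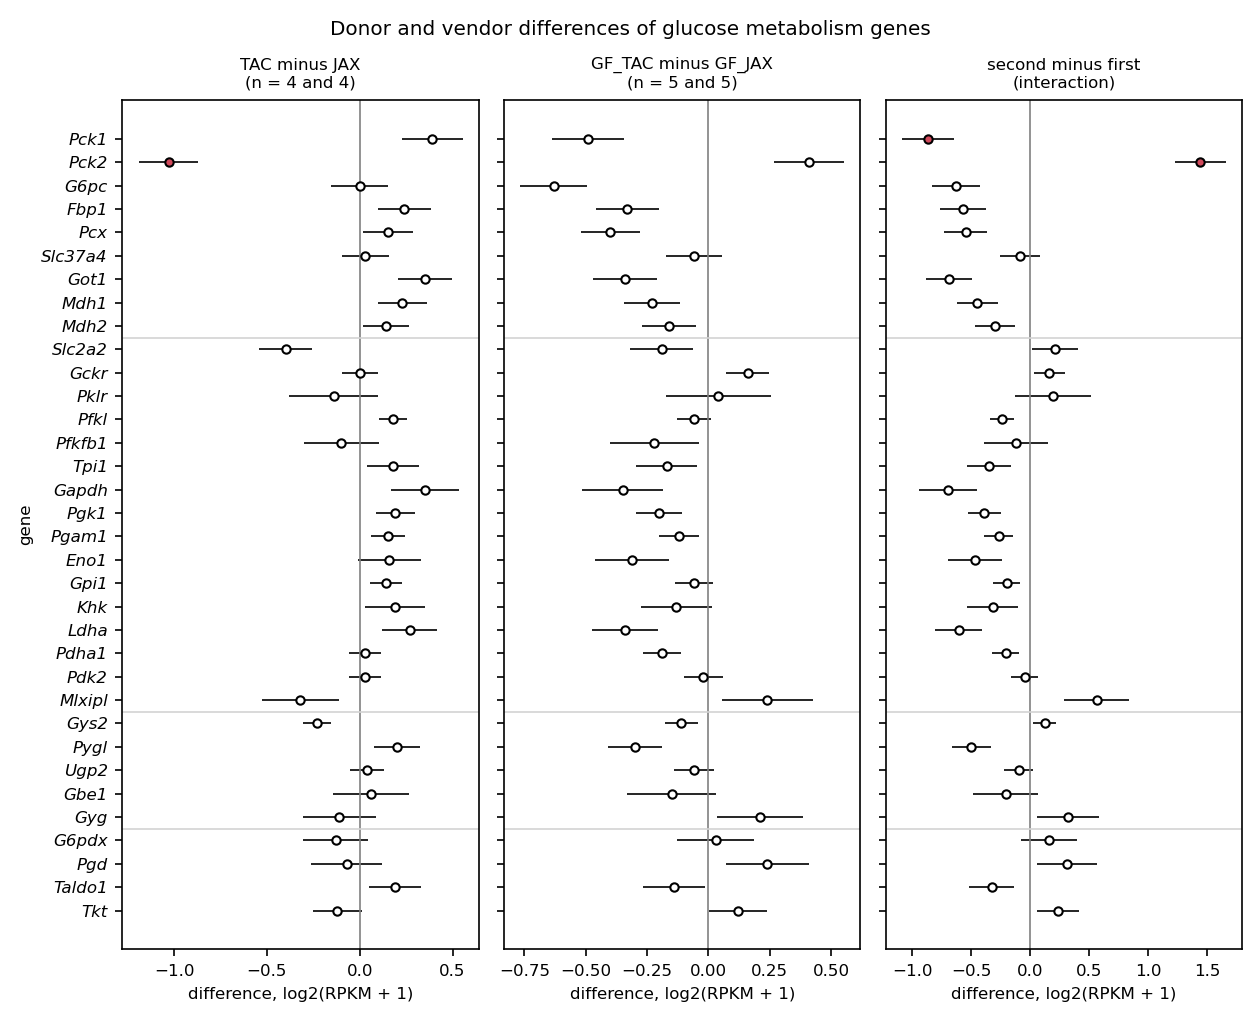
Differences on the log2(RPKM + 1) scale (horizontal axes) of the 34 genes (rows, by role) with standard errors, for TAC minus JAX, GF_TAC minus GF_JAX and the interaction. Filled points are called. Pck2 is at -1.03, 0.41 and 1.44, and Pck1 at 0.39, -0.49 and -0.87.

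Pck1, the cytosolic enzyme that makes most hepatic phosphoenolpyruvate for gluconeogenesis in the mouse, ran the other way in the interaction (-0.87 ± 0.22, adjusted p = 0.0485). Its RPKM was 602, 421, 514 and 538 in JAX and 593, 775, 667 and 675 in TAC. In GF it was 632, 456, 565 and 797. It was 692, 523, 738, 888 and 780 in GF_JAX and 490, 475, 545, 580 and 466 in GF_TAC. Groups overlapped for both donor comparisons, 0.39 ± 0.16 for TAC minus JAX (adjusted p = 0.476) and -0.49 ± 0.15 for GF_TAC minus GF_JAX (adjusted p = 0.18). The top level moved with Pck1. The interaction of Alb, Apoa1 and Apoe was -0.96, -0.92 and -0.96 (not called), and with depth as a term that of Pck1 was -0.26 (adjusted p = 0.17). As a share of the top level, Pck1 was 82.5% ± 5.8 (SD, n = 4) in JAX, 80.5% ± 2.0 in TAC, 72.6% ± 9.9 in GF, 68.7% ± 10.2 in GF_JAX and 70.2% ± 4.7 in GF_TAC. On that scale, which carries depth, the recipients overlapped, and GF_TAC was not the lower of them in the mean. The call of the interaction was kept with only 5 of 22 libraries left out singly. Pck1 was also called higher in GF_JAX than in JAX (0.47 ± 0.16, adjusted p = 0.0491), beside 0.73, 0.74 and 0.77 for Alb, Apoa1 and Apoe, and with depth as a term it was at -0.01.

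G6pc, which releases free glucose, was called in none of the comparisons. Its RPKM was 232 to 299.5 in JAX, 231 to 300.5 in TAC and 216 to 278 in GF. In GF_JAX it was 364, 221, 356, 434 and 310, and in GF_TAC 244, 220, 190, 212 and 198. All GF_JAX libraries but GF_JAX 2 lay above all GF_TAC libraries. The difference GF_TAC minus GF_JAX was -0.63 ± 0.14 (adjusted p = 0.065), and with depth as a term -0.46 (adjusted p = 0.186). Fbp1 was lower in GF_TAC (377 ± 25 RPKM, SD, n = 5) than in TAC (510 ± 50, n = 4), by 0.43 ± 0.14 (adjusted p = 0.0274), without overlap. Its call was lost with the length slope as a term, and without TAC 2, TAC 3, TAC 4, GF_TAC 1 or GF_TAC 5. Slc37a4, which carries glucose-6-phosphate to the phosphatase, was called in none of the comparisons, with group means from 163 to 177 RPKM.

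Of the enzymes that feed this route, Pcx was lower in GF and GF_TAC than in the vendor mice. Its RPKM was 281, 243, 266 and 296 in JAX and 276, 293, 312 and 324 in TAC, against 180, 177, 162 and 206 in GF. It was 168, 197, 170, 167 and 174 in GF_TAC and 283, 181, 204, 313 and 199 in GF_JAX. Within GF_JAX, the libraries at 283 and 313 were GF_JAX 1 and GF_JAX 4, which had the length slope of vendor libraries, and the other 3 lay at 181 to 204 with the GF libraries. Pcx fell by 0.58 ± 0.14 for GF minus JAX (adjusted p = 0.00598), by 0.73 ± 0.14 for GF minus TAC (adjusted p = 0.00146) and by 0.78 ± 0.13 for GF_TAC minus TAC (adjusted p = 0.000617). With the length slope as a term these were -0.28 (adjusted p = 0.274), -0.40 (adjusted p = 0.15) and -0.50 (adjusted p = 0.027), so that the last one alone was still called. The part of library kind in these differences was not tested beyond these fits.

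Cytosolic aspartate aminotransferase (Got1), which moves carbon and reducing equivalents between mitochondria and cytosol, had its lowest mean RPKM in GF_TAC. Its RPKM was 326, 273, 245 and 276 in GF and 138, 164, 200 and 190 in the first 4 GF_TAC libraries, with 173 in the fifth. It was 240 to 351 in TAC, 189 to 272 in JAX and 173 to 262 in GF_JAX. In RPKM, GF_TAC did not overlap GF or TAC. As a share of the top level, Got1 was 38.0% ± 3.2 (SD) in JAX, 36.3% ± 4.4 in TAC and 35.2% ± 12.6 in GF. It was 21.3% ± 5.9 in GF_JAX and 23.7% ± 3.1 in GF_TAC, so on that scale GF_TAC was not the lower of the recipients in the mean. Got1 was the 1 gene of the 34 called for GF_TAC minus GF (-0.70 ± 0.14, adjusted p = 0.033), and that call was lost when any one of 8 libraries was left out, all 4 GF libraries among them. The call for GF_TAC minus TAC (-0.81 ± 0.14, adjusted p = 0.00084) was kept under all alternatives run, at -0.99 with the length slope as a term. The malate dehydrogenases work in the same shuttle. Mdh1, the cytosolic one, was called once, higher in GF_JAX than in JAX (0.41 ± 0.12, adjusted p = 0.0345), and lost with depth as a term or without JAX 2, JAX 3, JAX 4, GF_JAX 3 or GF_JAX 5. The mitochondrial Mdh2 was called in none of the comparisons.

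**Figure D4:**
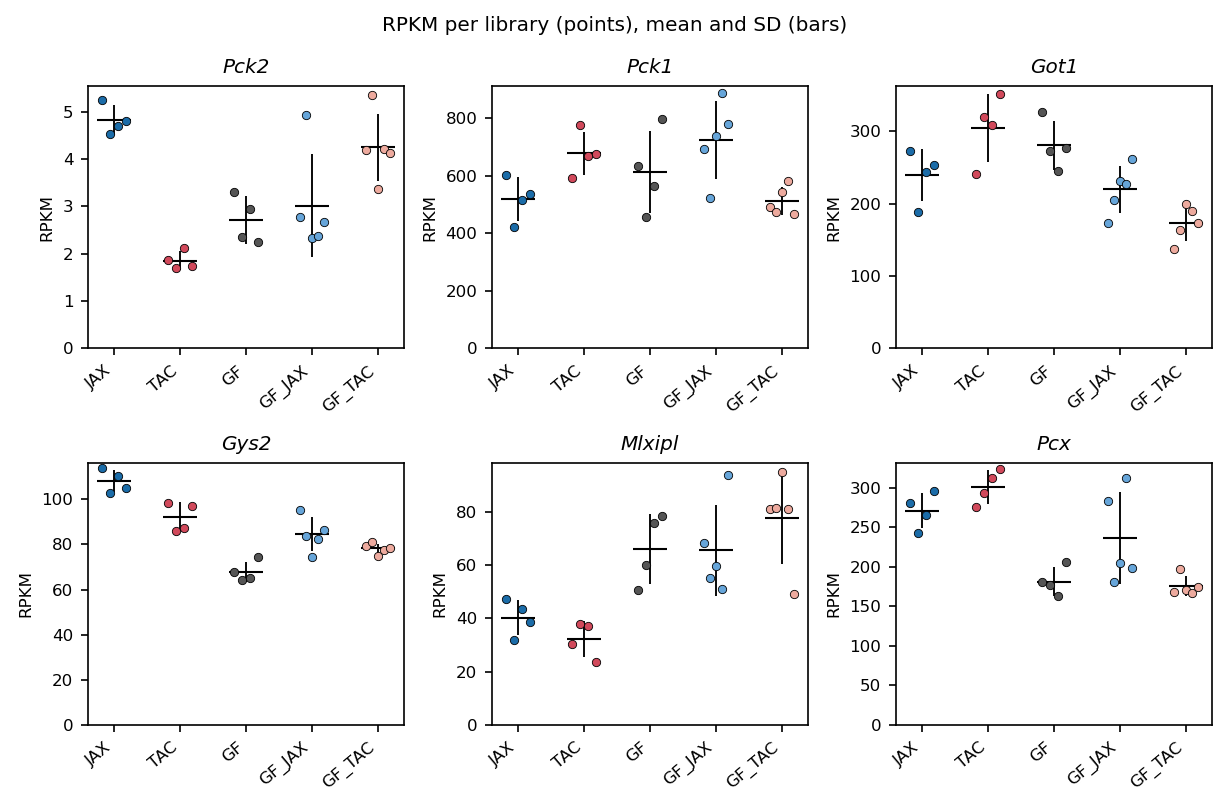
RPKM (vertical axes) of Pck2, Pck1, Got1, Gys2, Mlxipl and Pcx in the 5 groups (horizontal axes). Points are libraries, horizontal bars group means and vertical bars SD. Gys2 is highest in JAX (103 to 114 RPKM), and Mlxipl is at most 47.2 RPKM in the vendor mice and at least 49.0 RPKM in the other groups.

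In the glycolytic group, Mlxipl was higher in germ-free mice and in both groups of recipients than in the vendor mice. Its RPKM was 47.2, 31.9, 43.4 and 38.6 in JAX and 30.5, 37.7, 37.1 and 23.6 in TAC. It was 50.7, 59.9, 75.8 and 78.4 in GF, 51.0 to 93.9 in GF_JAX and 49.0 to 95.0 in GF_TAC. All GF and recipient libraries lay above all vendor libraries. The differences were 0.70 ± 0.21 for GF minus JAX (adjusted p = 0.0212), 1.02 ± 0.21 for GF minus TAC (adjusted p = 0.00274), 0.67 ± 0.20 for GF_JAX minus JAX (adjusted p = 0.0284) and 1.23 ± 0.20 for GF_TAC minus TAC (adjusted p = 0.000477). With the length slope as a term 1 of these 4 calls was kept, that for GF_TAC minus TAC (1.04, adjusted p = 0.0196). The call for GF minus JAX was lost without JAX 2, JAX 4, GF 3 or GF 4, and that for GF_JAX minus JAX without JAX 2, JAX 4 or GF_JAX 5. Both were also lost with depth as a term and with libraries scaled to a common sum. The call for GF_JAX minus JAX was lost too with the replicate block, with those groups alone and in libraries of positive length slope.

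Pklr, whose printed promoter holds the carbohydrate response element, was lower in GF where Mlxipl was higher. It was 93.9, 84.2, 83.5 and 73.4 RPKM in JAX and 70.2, 116, 72.6 and 54.5 in TAC, against 48.2, 56.1, 34.1 and 38.8 in GF. GF lay below all JAX libraries and overlapped TAC at 1 library each. Pklr fell by 0.92 ± 0.24 for GF minus JAX (adjusted p = 0.0108) and by 0.78 ± 0.24 for GF minus TAC (adjusted p = 0.0242). Both calls were lost with the length slope as a term (-0.77, adjusted p = 0.186 and -0.61, adjusted p = 0.374), and the second also without TAC 2, GF 3 or GF 4. Recipients spanned 40.3 to 105 RPKM in GF_JAX and 56.6 to 77.3 in GF_TAC and were called against no other group.

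Gckr, a regulatory protein of hepatic glucose use, was higher in GF (106 ± 6 RPKM, SD, n = 4) than in JAX (81.4 ± 11.6, n = 4) and TAC (81.0 ± 8.9, n = 4). The differences were 0.38 ± 0.10 in each (adjusted p = 0.00993 and 0.00939). Gckr was also higher in GF_TAC than in TAC (0.39 ± 0.09, adjusted p = 0.00636). Pfkfb1, which makes or breaks down the phosphofructokinase activator fructose-2,6-bisphosphate, was 48.8 to 58.9 RPKM in GF against 26.0 to 41.1 in JAX and 22.6 to 38.4 in TAC. It was higher by 0.79 ± 0.20 (adjusted p = 0.00972) and 0.89 ± 0.20 (adjusted p = 0.00516). Both genes were higher in GF without overlap with the vendor libraries. All calls of Gckr and Pfkfb1 were lost with the length slope as a term.

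Enolase 1 (Eno1) was lower in GF and GF_TAC. Its RPKM was 260, 191, 198 and 225 in JAX and 224, 268, 251 and 228 in TAC, against 125, 147, 104 and 123 in GF and 116 to 145 in GF_TAC. Groups did not overlap. Eno1 fell by 0.80 ± 0.17 for GF minus JAX (adjusted p = 0.0029), by 0.96 ± 0.17 for GF minus TAC (adjusted p = 0.00103) and by 0.88 ± 0.16 for GF_TAC minus TAC (adjusted p = 0.00125). In GF_JAX it was 194 and 236 in libraries 1 and 4, with the length slope of vendor libraries, and 141, 163 and 109 in the other 3. With the length slope as a term Eno1 differed by -0.47, -0.58 and -0.56 and was not called (adjusted p = 0.162, 0.119 and 0.0614).

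**Figure D5:**
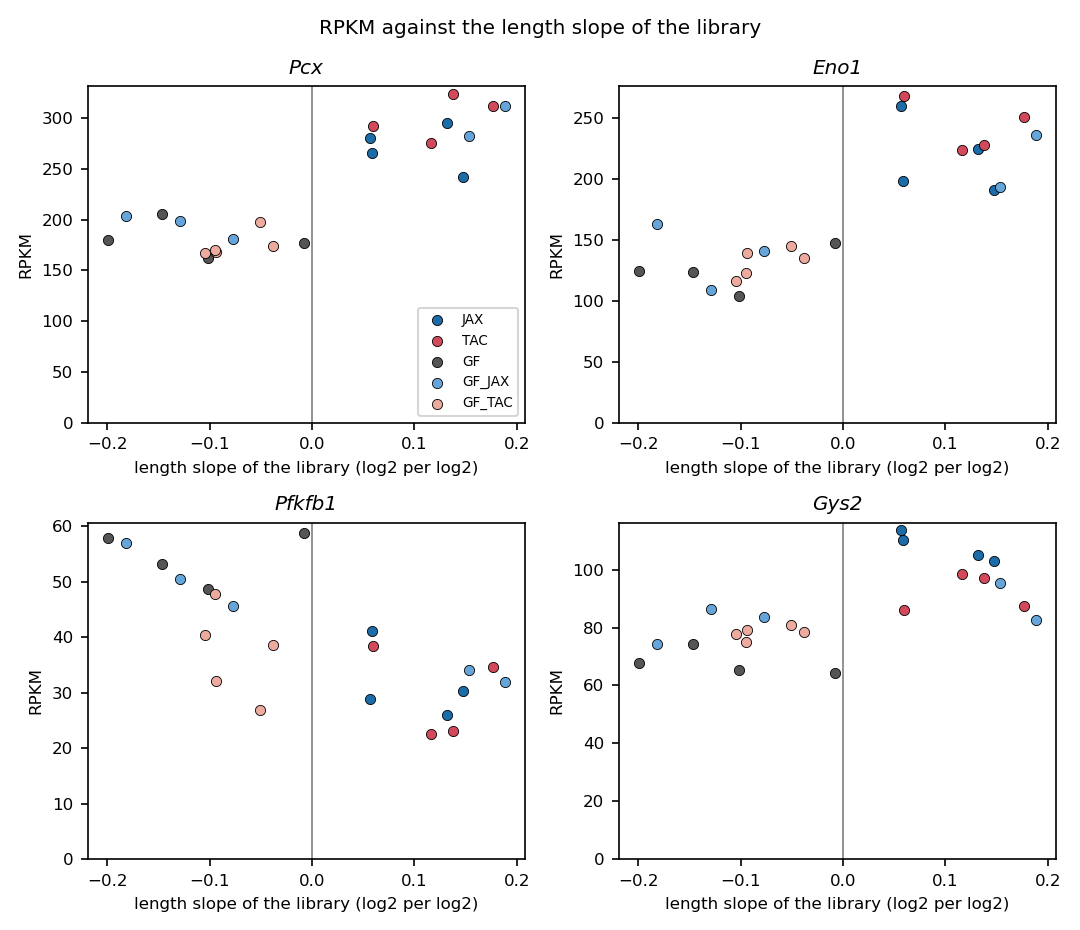
RPKM of Pcx, Eno1, Pfkfb1 and Gys2 (vertical axes) against the length slope of the library (horizontal axes, log2 RPKM per log2 length), 1 point per library, coloured by group. For Pcx the 10 libraries right of 0 lie between 243 and 324 RPKM and the 12 left of 0 between 162 and 206, whereas Gys2 in GF_JAX 1 and 4 (95.4 and 82.5 RPKM) lies below all JAX libraries.

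Of the other 11 glycolytic genes, 4 were called in 1 or 2 comparisons and 7 in none. Pfkl, which commits fructose-6-phosphate to glycolysis, was lower in GF than in TAC (-0.30 ± 0.08, adjusted p = 0.0107) and in GF_TAC than in TAC (-0.29 ± 0.07, adjusted p = 0.00838), calls that were lost with the length slope as a term. The glucose transporter GLUT2 (Slc2a2) was lower in GF than in JAX (69.5 ± 5.2 against 95.5 ± 7.9 RPKM, n = 4 each, -0.45 ± 0.15, adjusted p = 0.0303). This call was lost with depth or length slope as a term, and without JAX 1, JAX 3, GF 1 or GF 3. Ldha was lower in GF_TAC than in TAC (-0.40 ± 0.14, adjusted p = 0.0465), a call kept with 9 of 22 libraries left out singly and lost with the length slope as a term, without a filter and with the replicate block. Gapdh was higher in GF_JAX than in JAX (0.56 ± 0.17, adjusted p = 0.0381). Gapdh stood at a near-constant share of the top level, 34.5% ± 1.7 in JAX and 30.5% ± 3.9 in GF_JAX, and with depth as a term its difference was -0.0046. The call was also lost without JAX 2, JAX 3, JAX 4, GF_JAX 3 or GF_JAX 5. The aldose and triose enzymes Gpi1, Tpi1, Pgk1 and Pgam1, Khk, the pyruvate dehydrogenase subunit Pdha1 and its kinase Pdk2 were called in none of the comparisons. Pdha1 in GF (76.7 to 80.9 RPKM) lay below all JAX and all TAC libraries (88.5 to 98.8 RPKM), which was not called (adjusted p = 0.0819 and 0.0537).

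Among the glycogen genes, Gys2, the liver glycogen synthase, was highest in JAX and lowest in GF. Its RPKM was 114, 103, 110 and 105 in JAX, 98.4, 86.0, 87.5 and 97.1 in TAC, and 67.6, 64.1, 65.3 and 74.2 in GF. Recipients had 95.4, 83.6, 74.4, 82.5 and 86.4 in GF_JAX and 79.1, 80.9, 74.9, 77.7 and 78.5 in GF_TAC. The order JAX, TAC and GF had no overlap between neighbours, and both groups of recipients lay above GF without overlap and overlapped each other. Gys2 fell by 0.67 ± 0.08 for GF minus JAX (adjusted p = 8.61e-06) and by 0.44 ± 0.08 for GF minus TAC (adjusted p = 0.0009). Both calls were kept under all alternatives run, at -0.62 and -0.39 with the length slope as a term. TAC minus JAX was -0.23 ± 0.08, not called (adjusted p = 0.298).

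Recipients differed from their donor kind in Gys2 too, by -0.35 ± 0.07 for GF_JAX minus JAX (adjusted p = 0.0029) and -0.23 ± 0.07 for GF_TAC minus TAC (adjusted p = 0.023). The first was not called when the fit held those groups alone or libraries of positive length slope alone. The second was lost with the length slope as a term, alone or with depth, and with libraries scaled to a common sum. It was also lost without TAC 1, TAC 4 or GF_TAC 3. Against GF, Gys2 was the 1 gene of the 34 called for GF_JAX minus GF (0.31 ± 0.07, adjusted p = 0.0471). This call was kept with 3 of 22 libraries left out singly and in 3 of 15 other settings. GF_TAC minus GF was 0.20 ± 0.07 and was not called (adjusted p = 0.388).

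UDP-glucose pyrophosphorylase (Ugp2), which makes the glucose donor for glycogen, was higher in GF than in JAX (0.34 ± 0.09, adjusted p = 0.0138) and TAC (0.29 ± 0.09, adjusted p = 0.0253), and higher in GF_JAX than in JAX (0.29 ± 0.09, adjusted p = 0.0336). Its RPKM was 96.4 to 125 in GF against 78.7 to 89.6 in JAX and 80.2 to 95.0 in TAC. All 3 calls were lost with the length slope as a term and when libraries were scaled to a common sum, and all 3 also without some single libraries, of which GF 1 ended the first. Liver glycogen phosphorylase (Pygl), which breaks glycogen down, was lower in GF than in TAC (-0.37 ± 0.12, adjusted p = 0.0329). It was 154, 165, 120 and 139 RPKM in GF against 166, 233, 176 and 176 in TAC, and the call was lost with the length slope as a term, with those groups alone in the fit, and without TAC 2, TAC 4, GF 3 or GF 4. Pygl in GF_JAX (166 to 244 RPKM) lay above all GF libraries, by 0.49 ± 0.12, which was not called (adjusted p = 0.0536). The branching enzyme Gbe1 and Gyg were called in none of the comparisons. Gbe1 within GF_JAX was 67.5 and 53.8 RPKM in libraries 1 and 4 and 24.3 to 35.1 in the other 3.

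Of the 4 pentose phosphate genes, transaldolase (Taldo1), of the non-oxidative branch, was called once. It was higher in GF_JAX (199 to 327 RPKM) than in JAX (164 to 191 RPKM), by 0.47 ± 0.13 (adjusted p = 0.0256), without overlap, and lost with depth as a term or without JAX 2, JAX 3, JAX 4, GF_JAX 3 or GF_JAX 5. As a share of the top level it was 28.9% ± 4.1 in JAX and 24.4% ± 6.4 in GF_JAX. That share carries depth, and counted reads were 2.25 to 3.72 M in JAX and 1.32 to 2.8 M in GF_JAX. The lower share in GF_JAX is therefore not read against the difference in RPKM. G6pdx, phosphogluconate dehydrogenase (Pgd) and transketolase (Tkt) were called in none of the comparisons. The largest of their differences was that of Pgd in GF_TAC minus TAC (0.34 ± 0.18, adjusted p = 0.169). At 7 to 22 reads per library, small changes of G6pdx were not detectable.

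Beyond the 34 genes, 65 other glucose genes were tested, beside 23 regulators. By limma, 0 of the 65 were called for TAC minus JAX (11 at an unadjusted p under 0.05), 0 for GF_TAC minus GF_JAX (12) and 0 for both colonisation comparisons (10 and 5). Of the 12264 genes, 1102, 1635, 1945 and 1041 had an unadjusted p under 0.05, in that order. For GF minus JAX 17 were called, 2 higher and 15 lower, for GF minus TAC 15, 2 higher and 13 lower, for GF_JAX minus JAX 12, 6 higher and 6 lower, and for GF_TAC minus TAC 17, 4 higher and 13 lower. These shares, 26.2%, 23.1%, 18.5% and 26.2%, are to be read against the 24%, 24.3%, 13.4% and 23.8% of all genes. The pyruvate dehydrogenase kinase Pdk4, which spares pyruvate in fasting, was 20.2 ± 4.1 RPKM in JAX, 11.8 ± 4.7 in TAC, 6.22 ± 1.43 in GF, 5.87 ± 1.56 in GF_JAX and 5.99 ± 1.52 in GF_TAC (SD). It fell by 1.55 ± 0.23 for GF minus JAX (adjusted p = 0.000154) and by 1.63 ± 0.22 for GF_JAX minus JAX (adjusted p = 6.99e-05). Both calls were kept with the length slope as a term. Its relative Pdk1 was lower in GF than in JAX (-0.95 ± 0.14, adjusted p = 0.000194) and in GF_JAX than in JAX (-0.74 ± 0.14, adjusted p = 0.00134).

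The monocarboxylate transporter Slc16a1, which carries lactate and pyruvate, was lower in GF and in recipients than in vendor mice. The differences were -0.82 for GF minus JAX, -0.78 for GF minus TAC, -0.76 for GF_JAX minus JAX and -0.73 for GF_TAC minus TAC (adjusted p = 0.000419, 0.00101, 0.000684 and 0.00107). Glycerol-3-phosphate dehydrogenase (Gpd1) was lower in GF than in JAX (-0.56 ± 0.12, adjusted p = 0.00259) and TAC (-0.61 ± 0.12, adjusted p = 0.00181). Alanine aminotransferase 2 (Gpt2) was lower in GF than in TAC (-0.57 ± 0.11, adjusted p = 0.00221) and in GF_TAC than in TAC (-0.63 ± 0.11, adjusted p = 0.000823). Among the regulators, the hepatocyte factor Hnf4a was lower in GF than in TAC (-0.56 ± 0.13, adjusted p = 0.00544) and in GF_TAC than in TAC (-0.60 ± 0.12, adjusted p = 0.00254). Insulin receptor substrate 2 (Irs2) was lower in GF_TAC (6.00 ± 1.77 RPKM) than in TAC (20.4 ± 7.0 RPKM), a difference of -1.60 ± 0.32 (adjusted p = 0.00226). With the length slope as a term, all 6 calls of these other genes for GF minus TAC were lost, as were those of Gpd1 and Cebpb for GF minus JAX and of Gaa, Irs2, Hnf4a and Srebf1 for GF_TAC minus TAC. Other genes called among the 6 smallest p were Prps2 (-0.76) and Cebpb (0.66) in GF minus JAX, Dld (-0.42) and Pdk1 (-0.59) in GF minus TAC, Cebpb (0.79), Pkm (0.81) and Sord (0.62) in GF_JAX minus JAX, Gaa (-0.47) and Srebf1 (1.22) in GF_TAC minus TAC, and Tat (-1.07) and Hnf4a (-0.74) in the interaction. The interaction of Tat was kept under all alternatives run, and that of Hnf4a with 12 of 22 libraries left out singly and in 9 of 14 other settings, depth as a term not among them.

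Markers of other cells and of liver zones were called in the same 4 comparisons of GF or recipients with vendor mice. In GF minus JAX, 5 of 9 pericentral hepatocyte markers were higher (Cyp1a2, Glul, Oat, Rhbg and Slc1a2) and 0 of 7 periportal ones were called. In the same comparison 7 of 10 Kupffer cell, 3 of 7 sinusoidal endothelial and 2 of 7 stellate cell markers were higher. Of all genes, 11.7% were called higher and 12.3% lower there. The summed RPKM of the Kupffer cell markers was 141 to 294 in JAX and 290 to 385 in GF. Of the respiratory chain genes, 6 of 23 were higher and 0 lower, and of the immediate early and heat shock genes 1 of 15 was higher and 5 lower. In GF_JAX minus JAX, 8 of 10 hepatocyte, 5 of 9 pericentral, 2 of 7 periportal and 6 of 10 Kupffer cell markers were higher and 0 lower. So were 3 of 7 sinusoidal endothelial and 2 of 7 stellate cell markers, where 7.37% of all genes were called higher and 5.98% lower. In that comparison 6 of 23 respiratory chain genes were higher and 0 lower. Of the immediate early and heat shock genes 2 of 15 were higher and 3 lower. The 8 hepatocyte markers included Alb, Apoa1 and Apoe, whose RPKM fell with depth. Counted reads were 2.25 to 3.72 M in JAX and 1.32 to 2.8 M in GF_JAX. In GF minus TAC, 3 pericentral and 2 Kupffer cell markers were higher, and 2 hepatocyte (Hnf4a and Cps1) and 2 periportal markers (Cps1 and Gls2) were lower. Also higher were 2 of 7 sinusoidal endothelial markers and 1 of 7 stellate cell markers. Of the immediate early and heat shock genes 1 of 15 was higher and 3 lower. Of all genes, 11.1% were called higher and 13.2% lower. In GF_TAC minus TAC, 1 pericentral and 2 Kupffer cell markers were higher. Lower were 3 hepatocyte (Hnf4a, Cps1 and Tat) and 2 periportal markers (Cps1 and Gls2). Also higher were 2 of 7 sinusoidal endothelial and 2 of 7 stellate cell markers. Of the immediate early and heat shock genes 1 of 15 was higher and 6 lower. Of all genes, 11.1% were called higher and 12.7% lower. Immediate early and heat shock genes were also called lower for GF_TAC minus GF_JAX (2 of 15, against 0.114% of all genes). In the interaction 3 of 15 were called lower, against 1% of all genes. The part of these markers and genes in the differences of the glucose genes was not tested.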

How the data were processed

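Mouse liver was measured by poly(A) RNA sequencing in 22 libraries of 5 groups. The authors deposited 1 table of RPKM (reads per kilobase of transcript and per 1000000 mapped reads) per gene and library. Bowtie 1.0.0, Cuffdiff 2.1.1 and mm9 are named in the submitters' processing notes, without their roles. Of 24397 rows, 461 were empty and 27 had date-like names. Tests used limma 3.58.1 (R 4.3.3, with trend) on log2(RPKM + 1), which understates changes of low genes, for genes of at least 1 RPKM in at least 4 libraries, in 1 fit of all 5 groups, two-sided, with Benjamini-Hochberg adjustment over 12264 genes and a threshold of 0.05. Depth was read from steps of low RPKM: 83.7% of 3961 low genes gave whole reads within 0.02 reads. Promoters were RefSeq's on GRCm38.p6, and no coordinates were converted from mm9. Summaries and figures used Python 3.11.15, numpy 2.4.6, pandas 2.3.3 and matplotlib 3.10.9.

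All 34 genes are named. Of the other glucose genes and regulators, up to 6 called genes per comparison, by smallest p, are named. The members and lists were chosen with earlier results of these data known. Alternatives changed the pseudocount, filter, scaling, covariates, groups in the fit and libraries. A gene of these lists is not reported here.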

Additional observations from a re-analysis of the deposited data

Results flagged for a closer look

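Within groups, 5 of 170 sets of values held a library far from the others, where chance gives about 1 in 20. Pck2 was 4.92 RPKM in GF_JAX 2, with 2.78 next. Pcx was 197 RPKM in GF_TAC 2, with 175 next, and Mlxipl was 49.0 RPKM in GF_TAC 5, with 81.1 next. G6pdx was 2.81 RPKM in TAC 3, with 1.83 next, and Taldo1 was 238 RPKM in TAC 2, with 196 next. The donor difference among recipients differed from the vendor difference by -0.87 for Pck1 and by 1.44 for Pck2 (limma interaction, adjusted p = 0.0485 and 0.00164). The value for Pck1 was not called with depth as a term, and that for Pck2 not with depth and length slope as terms.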

How the results depend on the processing

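Of 43 calls of the 34 genes, 24 were kept with any single library left out, 14 with the length slope as a term, 32 with depth as a term and 31 with libraries scaled to a common sum, and 8 were kept under all alternatives run. The number of the 34 genes called for GF minus JAX (10) was 17 after quantile normalisation and 2 with the length slope as a term. For GF minus TAC (10) it was 17, 1 and, with depth and length slope, 6. For GF_JAX minus JAX (8) it was 1 with depth, 3 with length slope, 4 with both, 4 in libraries of positive slope, 14 without GF_JAX 1 and 4 and 0 with those groups alone. For GF_TAC minus TAC (10) it was 6 with length slope and 16 with library quality weights or those groups alone. For GF_JAX minus GF (1) it was 2 with a filter at 5 RPKM and 0 in 12 other alternatives. For GF_TAC minus GF (1) it was 0 without a filter, with those groups alone and in libraries of negative slope. For TAC minus JAX (1) it was 0 with a filter at 5 RPKM, which removed Pck2, and 2 with quality weights. The interaction (2) had 8 with length slope, 0 with depth and length slope, and 1 with a pseudocount of 5, no filter, the filter at 5 RPKM, quantile normalisation, depth, quality weights or without GF_JAX 1 and 4. The number of all genes called moved too. For GF minus JAX (2939) it was 2807 after quantile normalisation and 459 with the length slope. For GF minus TAC (2977) it was 3404, 136 and, with depth and length slope, 312. For GF_JAX minus JAX (1638), in the order given above, it was 320, 1161, 664, 756, 4241 and 479. For GF_TAC minus TAC (2924) it was 460 with length slope, 4938 with quality weights and 4126 with those groups alone. For GF_JAX minus GF (75) it was 79 with the filter at 5 RPKM. For GF_TAC minus GF (25) it was, in the order above, 17, 17 and 5, and for TAC minus JAX (36) 34 and 218. For the interaction (182) it was, in the order above, 660, 110, 182, 137, 201, 109, 102, 283 and 205. Fits with both terms and libraries of 1 slope sign were chosen after seeing the data. Apart from the loss of tested genes or samples, the cause was not tested. In GF_JAX minus JAX, Gapdh turned to -0.0046 with depth and -0.03 with depth and length slope, and Pck1 to -0.07 after quantile normalisation and -0.01 with depth. With single libraries left out, counts ranged from 8 to 14 for GF minus JAX, 7 to 12 for GF minus TAC, 1 to 10 for GF_JAX minus JAX, 7 to 12 for GF_TAC minus TAC, 0 to 3 for GF_JAX minus GF, 0 to 1 for GF_TAC minus GF, 0 to 2 for GF_TAC minus GF_JAX, 1 to 1 for TAC minus JAX and 1 to 4 for the interaction. Replicate numbers did not pair the samples: 7 of 41 same-numbered pairs had r over 0.1, and 2 of 22 libraries correlated best with their own number. With the replicate block the count was 0 for GF_JAX minus GF, 6 for GF_JAX minus JAX and 9 for GF_TAC minus TAC, and the others were as without it.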
